A study of Mus musculus with 12 samples.

Results

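A set of 10 genes of tendon and cartilage matrix was followed in skeletal muscle: the small leucine-rich proteoglycans Fmod, Lum, Dcn and Bgn, the matrix proteins Comp, Thbs4, Chad and Cilp2, and the tendon cell genes Tnmd and Scx. They were taken by name, as every probe set of the array whose only gene symbol was 1 of these, which gave 19 probe sets for 10 of the 18193 genes measured. The names were selected on results of these same arrays, with the 42-day differences from chow in view, among them that of Fmod, so the group differences of the 10 genes are given as a description and support nothing beyond it. Muscle RNA of C57Bl/6 mice was hybridised to 12 Affymetrix arrays, 4 in each of 3 groups. The chow group stayed on a standard diet with 13% of calories from fat, and the others were moved at 6 weeks of age to high-fat food (46% of calories from fat) and stayed on it 5 days in 1 group and 42 days in the other. The same 4 chow arrays were the control at both times. Both high-fat groups were moved at the same age, so the 42-day animals were older when sampled than the 5-day animals. Time on the diet and age cannot be told apart between these groups, and the comparisons with chow may differ in age as well. The labels name neither the muscle nor the sex, give no batch and no age for chow animals when sampled, and do not state that replicates are different mice, so p-values measure only the spread between these samples, which may be technical.

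Tendon is built of collagen fibrils whose width and spacing are set in part by small leucine-rich proteoglycans, which bind the fibrils through a curved protein core and carry sulfated sugar chains. Comp and Thbs4 are thrombospondins with 5 subunits that bind collagens in tendon and cartilage, and the transcription factor scleraxis (Scx) marks tendon progenitors and drives the membrane protein tenomodulin (Tnmd). In muscle the same proteoglycans are also made by the fibroblasts of the connective tissue around fibres. Tnmd is known as a gene of tendon and its sheaths, though its RNA need not come from these alone. In RNA of whole muscle, a change in the number of cells of a type and a change in RNA per cell cannot be told apart.

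For reference, the 250 bases before the start site are shown for Tnmd, Fmod and Thbs4, the 3 genes with the largest 42-day differences. They are from RefSeq on GRCm38.p6, written 5′ to 3′ on the gene's own strand, and the capitals mark CANNTG, the E-box that basic helix-loop-helix factors such as scleraxis bind and that reads the same on both strands.
Fmod, chr1:134037004-134037253, plus strand: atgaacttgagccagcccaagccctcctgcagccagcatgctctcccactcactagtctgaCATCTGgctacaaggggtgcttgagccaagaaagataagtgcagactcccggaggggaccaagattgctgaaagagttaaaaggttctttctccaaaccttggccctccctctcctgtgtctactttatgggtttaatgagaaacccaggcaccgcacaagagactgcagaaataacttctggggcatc
Tnmd, chrX:133850758-133851007, plus strand: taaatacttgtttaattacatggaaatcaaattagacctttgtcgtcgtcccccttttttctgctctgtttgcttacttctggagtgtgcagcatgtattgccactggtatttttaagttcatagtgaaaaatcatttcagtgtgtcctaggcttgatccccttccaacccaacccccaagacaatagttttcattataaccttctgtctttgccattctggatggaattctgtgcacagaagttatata
Thbs4, chr13:92794819-92795068, minus strand: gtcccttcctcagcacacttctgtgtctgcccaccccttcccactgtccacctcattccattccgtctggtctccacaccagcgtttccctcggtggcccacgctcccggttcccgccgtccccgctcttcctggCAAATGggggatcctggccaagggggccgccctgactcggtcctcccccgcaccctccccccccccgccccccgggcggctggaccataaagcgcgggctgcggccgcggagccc
The table of promoters held 6 of the 10 genes, and 5 of these 6 had a CANNTG in the window, as did 66.2% of all 32851 promoters of the same length. Fmod had its E-box 189 bases and Thbs4 115 bases before the start. Tnmd held no CANNTG in the 250 bases.

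The values are log2 RMA signals, and levels of different genes are not set against each other because probe sets differ in brightness. The arrays had lower quartiles of 6.44 to 6.55. The skeletal muscle markers Acta1 (15.39 ± 0.01) and Ckm (15.44 ± 0.01 on chow, log2, SD, n = 4) were near the top of the table's range, which ends at 15.46, and the mean of 14 such markers lay between 14.75 and 14.84. Over all 18193 genes, limma at an adjusted p under 0.05 called 692 at 5 days against chow, 1011 at 42 days against chow and 1550 at 42 against 5 days, with 42.1%, 38.2% and 32.3% of them higher. Centring each array on its median turned the first split to 84.3% higher and the last to 7.45%, and cyclic loess put the last at 44.4%. For 42 days against chow the split was 58.0% higher when probe sets were averaged per gene and 57.5% with the most variable one. The counts lay between 6 and 790, 228 and 1079, and 0 and 1972 when 1 array was left out, with the lowest count without 5-day replicate 2, chow replicate 3 and 42-day replicate 1. The control probe sets of Gapdh and Actb gave the difference between 3-prime and 5-prime signal, a measure of RNA integrity. For Gapdh it was 0.11 to 0.16 on chow, 0.10 to 0.13 at 5 days and 0.045 to 0.074 at 42 days (log2). For Actb it was 0.10 to 0.18, 0.059 to 0.235 and 0.013 to 0.087. The 42-day arrays were thus lowest for Gapdh with no overlap, and the part of this in the differences below was not tested.

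**Figure D1:**
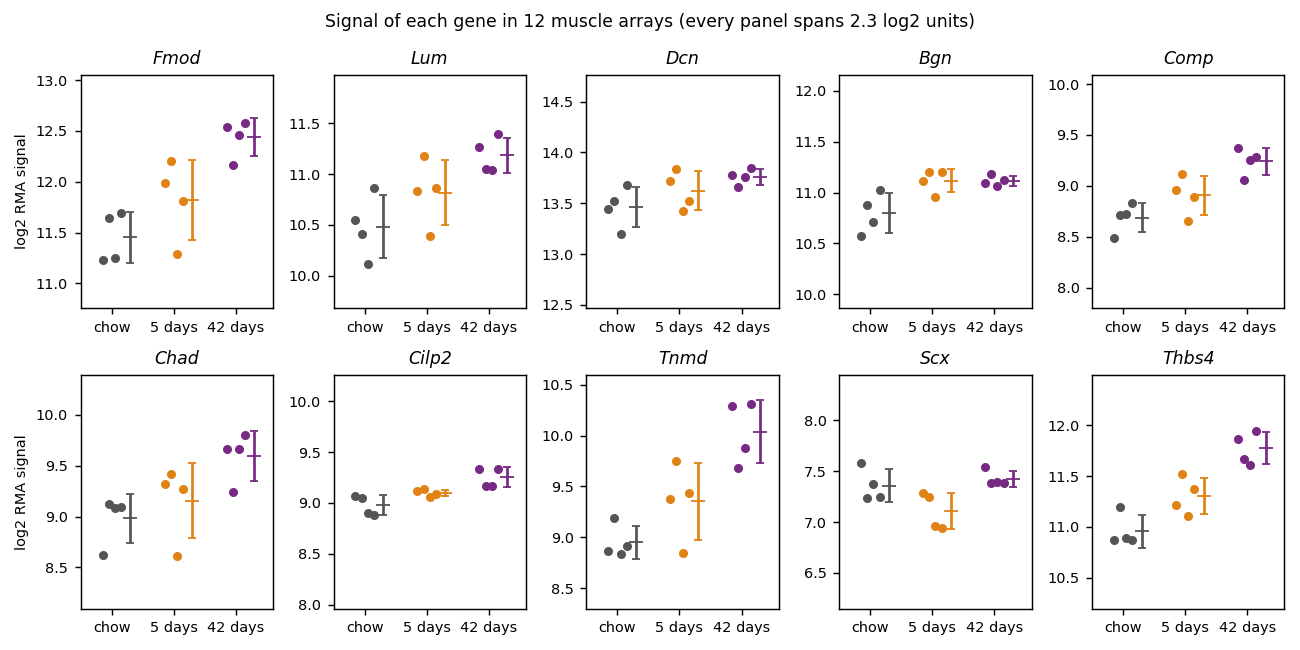
Log2 RMA signal (y axis, each panel spanning 2.3 log2 units around the gene's mean) of the 10 genes on chow, after 5 days and after 42 days of high-fat diet; points are the 4 arrays of a group and the mark beside them is the mean with its SD. Tnmd at 42 days, from 9.68 to 10.31, lies above its highest chow array at 9.19, whereas the 42-day and chow arrays of Scx and Dcn overlap.

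Fmod, fibromodulin, is a keratan sulfate proteoglycan that binds collagen I and takes part in fibril assembly and crosslinking. Its signals were 11.23, 11.64, 11.25 and 11.70 on chow, 11.99, 12.20, 11.29 and 11.81 at 5 days, and 12.54, 12.17, 12.46 and 12.58 at 42 days. All 42-day arrays were above all chow arrays, while 5-day replicate 3 lay at the level of chow. The means were 11.45 ± 0.25 for chow and 12.44 ± 0.19 for 42 days (SD, n = 4), a difference of 0.98 ± 0.16 (log2, ± SE) or 1.98-fold. At 5 days the difference from chow was 0.37 ± 0.16, with overlapping groups. Fmod had 6 probe sets, all higher at 42 days than on chow. The other 5 carry names that mark possible cross-hybridisation and gave 42-day differences from 0.43 to 0.64, smaller than the 0.98 of the brightest. The mean of the 6 probe sets put the 42-day difference at 0.64 and that between 42 and 5 days at 0.35, against 0.61 for the brightest one.

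Lum, lumican, is the closest relative of Fmod in this set and binds the same stretch of collagen. Its signals were 10.54, 10.41, 10.12 and 10.86 on chow, 10.83, 11.17, 10.40 and 10.87 at 5 days, and 11.26, 11.05, 11.04 and 11.39 at 42 days. Every 42-day array was above every chow array, and the chow and 5-day groups overlapped. The 42-day difference was 0.70 ± 0.16 (1.62-fold) and the 5-day difference 0.33 ± 0.16.

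Dcn, decorin, carries a chondroitin or dermatan sulfate chain and is made by most connective tissue fibroblasts. Its signals were 13.45, 13.52, 13.20 and 13.68 on chow, 13.72, 13.84, 13.42 and 13.52 at 5 days, and 13.78, 13.66, 13.76 and 13.84 at 42 days. Groups overlapped in all comparisons, with differences from chow of 0.16 ± 0.10 at 5 days and 0.30 ± 0.10 at 42 days. The other Dcn probe set was much dimmer, at 7.61 ± 0.20 on chow, and differed by -0.12 at 42 days, so the mean of both put the 42-day difference at 0.09.

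Bgn, biglycan, is the nearest relative of decorin. Its signals were 10.58, 10.88, 10.72 and 11.02 on chow, 11.11, 11.20, 10.96 and 11.20 at 5 days, and 11.09, 11.18, 11.07 and 11.12 at 42 days. It stood as high at 5 as at 42 days: the differences from chow were 0.32 ± 0.08 at both times, and the difference between 42 and 5 days was 0.00025 ± 0.084. The chow and 42-day groups did not overlap. Its other 2 probe sets differed by 0.20 and 0.25 at 5 days and by 0.27 and 0.37 at 42 days.

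Comp, the cartilage oligomeric matrix protein, gave 8.48, 8.71, 8.72 and 8.83 on chow, 8.96, 9.11, 8.66 and 8.89 at 5 days, and 9.37, 9.06, 9.25 and 9.28 at 42 days. Every 42-day array was above every chow array, with a difference of 0.55 ± 0.10 (1.47-fold), and the 5-day difference was 0.22 ± 0.10 with overlap. Thbs4, the related thrombospondin of tendon and muscle, gave 10.87, 11.20, 10.89 and 10.87 on chow, 11.22, 11.52, 11.11 and 11.37 at 5 days, and 11.87, 11.67, 11.61 and 11.94 at 42 days. Here the 42-day arrays were above both other groups, with differences of 0.82 ± 0.10 (1.76-fold) from chow and 0.47 ± 0.10 from 5 days. Of the 5-day arrays only replicate 3 lay below the highest chow array.

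Chad, chondroadherin, is a leucine-rich protein of cartilage that binds collagen and cells. It gave 8.62, 9.13, 9.09 and 9.10 on chow, 9.32, 9.42, 8.61 and 9.27 at 5 days, and 9.66, 9.24, 9.67 and 9.80 at 42 days. All 42-day arrays were above all chow arrays, for a difference of 0.61 ± 0.17 (1.53-fold), and 5-day replicate 3 was the lowest of all 12 arrays. Cilp2, a homologue of the cartilage intermediate layer protein, gave 9.07, 9.05, 8.90 and 8.88 on chow, 9.11, 9.13, 9.06 and 9.09 at 5 days, and 9.34, 9.17, 9.17 and 9.34 at 42 days. Its steps were the smallest of the genes whose 42-day arrays all lay above chow: 0.12 ± 0.06 at 5 days and 0.28 ± 0.06 (1.21-fold) at 42 days.

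Tnmd, tenomodulin, gave 8.86, 9.19, 8.84 and 8.91 on chow, 9.38, 9.75, 8.85 and 9.43 at 5 days, and 10.29, 9.68, 9.88 and 10.31 at 42 days. It had the largest difference of the 10 genes, 1.09 ± 0.17 or 2.13-fold at 42 days, against 0.40 ± 0.17 at 5 days. The 42-day arrays lay above all chow arrays, and 5-day replicate 2 reached into their range.

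Scx was the exception among the 10. Its brighter probe set, with a name that marks possible cross-hybridisation, gave 7.58, 7.23, 7.37 and 7.25 on chow, 7.29, 7.24, 6.96 and 6.95 at 5 days, and 7.54, 7.39, 7.39 and 7.38 at 42 days. The 42-day and chow groups overlapped (0.07 ± 0.09), the 5-day difference from chow was -0.25 ± 0.09 with overlap, and all 42-day arrays were above the 5-day arrays (0.31 ± 0.09). The other probe set, at 6.47 ± 0.06 on chow and so near the lower quartile of the arrays, differed by -0.16 at 5 days and -0.15 at 42 days, and by 0.0038 between the times. The mean of both probe sets put the 42-day difference from chow at -0.044. Both readings of Scx were dim, and no detection call was used, so whether scleraxis itself was measured above background is not known.

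**Figure D2:**
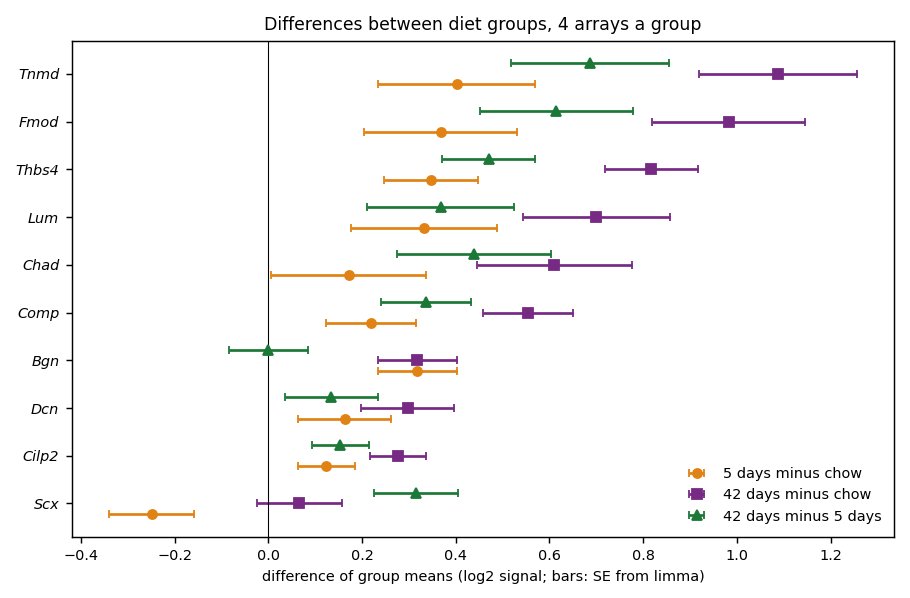
Differences of group means on the log2 scale (x axis) for the 10 genes, ordered by the 42-day difference from chow; circles are 5 days minus chow, squares 42 days minus chow, triangles 42 minus 5 days, and bars are SE from limma over 12 arrays. Tnmd (1.09), Fmod (0.98) and Thbs4 (0.82) lead at 42 days, Bgn has no step between 5 and 42 days, and Scx alone is below 0 at 5 days.

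In all, 10 of the 10 genes had a higher mean at 42 days than on chow, with a median difference of 0.58 against -0.013 over all genes. Of these, 8 passed limma's threshold in this direction, where 2.12% of all genes did (5.56% in either direction, 3.44% lower), and in the same number the groups did not overlap, where 5.19% of all genes had 42 days wholly above chow. The 2 others were Dcn and Scx. At 5 days 9 of 10 means were higher than on chow, with a median of 0.27 against -0.010 over all genes, and only Bgn passed, where 1.6% of all genes were called higher (3.8% in either direction, 2.2% lower). In 0 of the 10 did the 5-day arrays lie wholly above chow, where 5.29% of all genes did. From 5 to 42 days all 10 means were higher, with a median of 0.35 against 0.00775, and Fmod, Comp, Tnmd, Thbs4 and Scx passed, where 2.75% of all genes were called higher (8.52% in either direction, 5.77% lower). The groups did not overlap in Thbs4, Cilp2 and Scx, where 7.17% of all genes had 42 days wholly above 5 days (20.4% in either direction). These comparisons share arrays, and since the genes were picked with them in view nothing is read from the counts.

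Fmod, Comp, Tnmd and Thbs4 passed at 42 days against chow without each of the 12 arrays in turn and under the 11 other settings that keep the threshold, whereas the count of 8 was 4 without chow replicate 3, without 42-day replicate 1 and without 42-day replicate 4. Lum did not pass without these 3 arrays (0.58, 0.67 and 0.63). Cilp2 did not pass without them or without chow replicate 4 (0.25 in each of the 4 fits). Bgn lost its call without chow replicates 1 or 3, 5-day replicate 1 or any 42-day replicate, and Chad without any chow replicate, 5-day replicates 1 or 4, or 42-day replicates 1, 3 or 4. Their differences then ran from 0.24 to 0.33 for Bgn and from 0.49 to 0.66 for Chad. At 5 days the call of Bgn held in 6 of 23 alternatives. Without 5-day replicate 3 there were 3 calls, Fmod (0.55), Bgn (0.37) and Thbs4 (0.41), and without 5-day replicate 2 there were 0. None of the 5 calls between 42 and 5 days held without 5-day replicate 2, 5-day replicate 3 or 42-day replicate 1; without 5-day replicate 3 the differences were 0.44 for Fmod, 0.25 for Comp, 0.52 for Tnmd, 0.40 for Thbs4 and 0.27 for Scx.

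**Figure D3:**
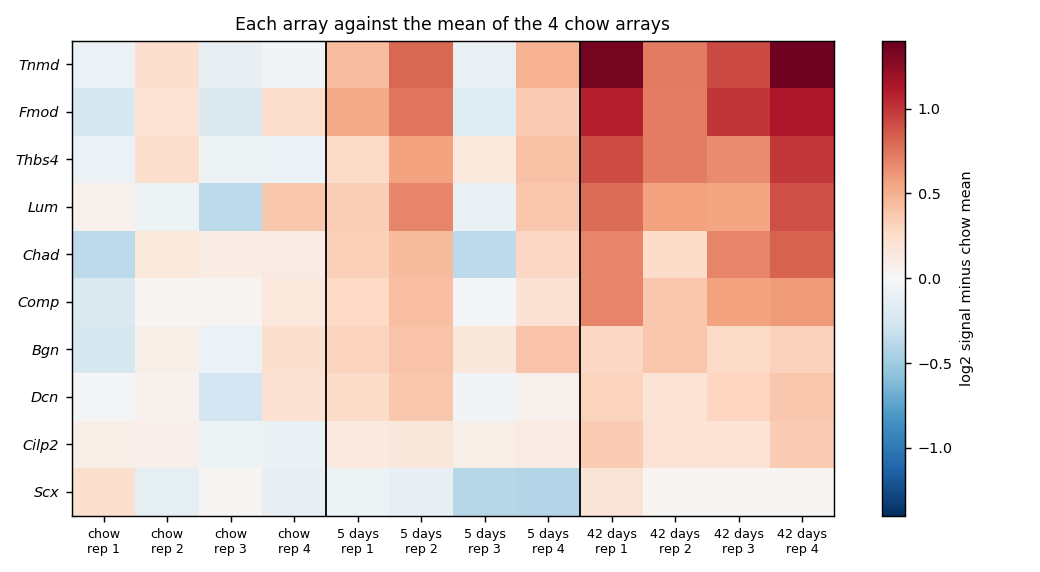
Log2 signal of each gene (rows) on each of the 12 arrays (columns) minus the gene's mean on the 4 chow arrays; red is above and blue below that mean. The 42-day columns lie above the chow mean in all rows, by little in Scx, and the 5-day columns vary, with replicate 2 red in 9 rows and replicate 3 near the chow mean or below in most.

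The arrays of a group did not stand at 1 level, and they differed in many of the genes at once. At 5 days, replicate 2 was the highest of the 4 arrays in 9 of the 10 genes, and replicate 3 was the lowest in 9. The mean over the 10 genes was 9.93 in 5-day replicate 3, within the chow range of 9.91 to 10.11, and 10.29, 10.46 and 10.24 in the other 5-day arrays. The 42-day arrays lay at 10.67, 10.43, 10.53 and 10.70, with replicate 2 just under 5-day replicate 2. The SD of this mean over 4 arrays was 0.11 on chow, 0.22 at 5 days and 0.13 at 42 days. On chow no array was high in most genes: replicate 4 was highest in 5 and replicate 2 in 3.

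How the genes varied together was measured as Pearson's r between 2 genes over the 12 arrays after each group's mean was taken off, so that diet differences do not enter. Among the 45 pairs, 43 had a positive r, with a median of 0.57. The exact two-sided permutation test within groups, adjusted over the 45 pairs, was passed by 8 of them, and by 5 with Spearman's rho. Fmod was part of 4: with Chad r was 0.883 (exact permutation p = 0.000289, the smallest among the pairs, adjusted p = 0.0119; rho 0.86, exact permutation p = 0.000723), with Comp 0.899 (adjusted permutation p = 0.0119; rho 0.867), with Dcn 0.863 (adjusted permutation p = 0.0119; rho 0.895) and with Tnmd 0.859 (adjusted permutation p = 0.0146; rho 0.755). The others were Comp with Chad (0.916), Tnmd with Thbs4 (0.894), Lum with Dcn (0.89) and Chad with Tnmd (0.815), at adjusted permutation p of 0.0195 to 0.0228. Of these 4, Tnmd with Thbs4 alone passed by rho (0.888, adjusted permutation p = 0.0391). Leaving out the 2 arrays farthest from the median of the first gene kept r of the 8 pairs between 0.684 and 0.852. Bgn with Cilp2 (-0.251) and Bgn with Scx (-0.394) were the 2 negative pairs, and the 9 pairs with Scx had a median of 0.186.

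The count of pairs rests on few arrays. It was 0 without 5-day replicate 2, 3 without 5-day replicate 3, 17 without chow replicate 1 and 14 without chow replicate 4, while the median r stayed between 0.405 and 0.637.

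**Figure D4:**
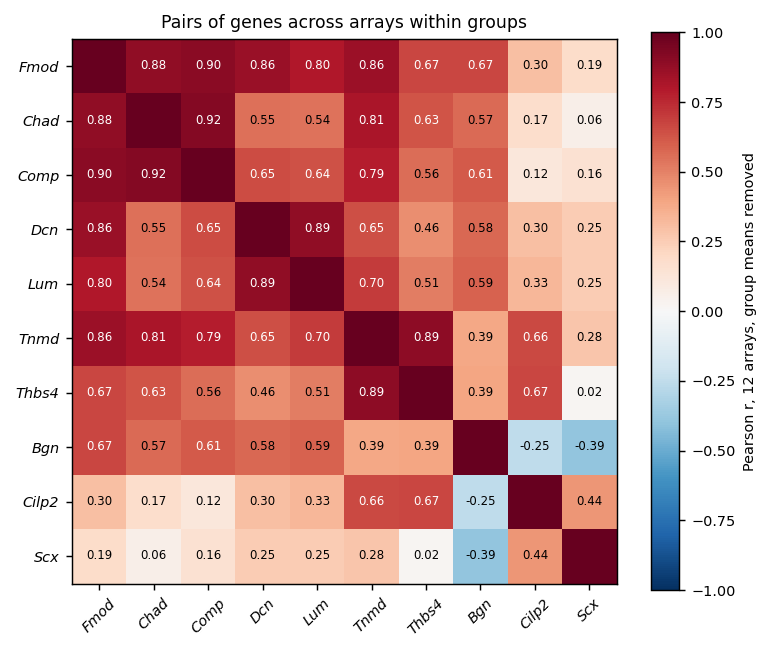
Pearson's r of each pair of the 10 genes over 12 arrays with group means removed, as colour and number. The block of Fmod, Chad, Comp, Dcn, Lum, Tnmd and Thbs4 holds r from 0.46 to 0.92; pairs with Scx reach 0.44 at most, and those of Bgn and Cilp2 with other genes run from -0.39 to 0.67.

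Outside the 10 genes, those most like their mean (each scaled to unit SD, group means taken off, 12 arrays) were Lhfp (r = 0.935), Igfbp6 (0.933), Smoc2 (0.926), Lox (0.925), Serpinf1 (0.917), Ctage5 (0.916), Cyth3 (0.916) and Slc35e3 (0.908). Igfbp6, a binding protein of insulin-like growth factors, Smoc2, a calcium-binding matrix protein, and Lox, the lysyl oxidase that crosslinks collagen, encode secreted proteins. The other genes named are not described, and whether the 8 share a function was not tested. They are the top 8 of 18183 genes, the median of which was -0.0076, and 97 had r over 0.8. Likeness within groups did not go with 1 diet pattern: at 42 days Lox differed from chow by 0.52 and Serpinf1 by 0.57, and Ctage5 by -0.053 and Slc35e3 by -0.051.

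The other leucine-rich proteoglycans were read as a list that does not hold the 10 genes. Of 11 measured, 8 had higher values at 42 days, 4 rose, 7 did not pass the test, and the median difference was 0.24. Those that rose were Prelp, a collagen and heparan sulfate binding relative of Fmod (10.16 ± 0.30 on chow, 10.92 ± 0.09 at 42 days, 0.77 ± 0.15, limma adjusted p = 0.0133), keratocan or Kera (8.77 ± 0.05 and 9.39 ± 0.29, 0.62 ± 0.13, limma adjusted p = 0.018), osteomodulin or Omd (7.06 ± 0.08 and 7.48 ± 0.12, 0.42 ± 0.07, limma adjusted p = 0.0080) and asporin or Aspn (9.45 ± 0.12 and 9.84 ± 0.20, 0.39 ± 0.09, limma adjusted p = 0.0289). At 5 days 0 of 11 passed by limma and 5 had an unadjusted p under 0.05, with Aspn closest (0.29 ± 0.09, limma adjusted p = 0.0881). Between 5 and 42 days all 11 were higher and Omd rose (0.29 ± 0.07, limma adjusted p = 0.0308), though not without 5-day replicates 2 or 3 or 42-day replicates 1, 2 or 4 (0.23 to 0.33). Omd alone of the 4 passed at 42 days without each array in turn. Its signal was dim, though, with a mean at percentile 25.6 of all genes (Scx was at 26.7), and no detection call was used. The call of Omd between 5 and 42 days was also lost after quantile normalization and cyclic loess. Prelp (0.68 to 0.90) did not pass without chow replicate 3, Kera (0.55 to 0.76) without that array or 42-day replicates 1 or 4. Aspn (0.32 to 0.48) lost its call when chow replicate 1, chow replicate 4 or 42-day replicate 1, 3 or 4 was left out. Under the other settings, with all arrays kept in, the 42-day difference of Aspn from chow reached 1.12.

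Of 17 other tendon genes, 12 were higher at 42 days, 6 rose, 11 did not pass, and the median was 0.21. At 5 days 16 were higher, with a median of 0.14, and between the times 11 were higher, with a median of 0.061. The collagen I gene Col1a1 was at 0.70 ± 0.21 at 5 days and 0.72 ± 0.21 at 42 days, not past the test at either time. Col1a2 was at 0.51 ± 0.14, not past the test, and at 42 days at 0.61 ± 0.14 (limma adjusted p = 0.0256). Its call was not followed without single arrays. Prg4, the lubricating proteoglycan of joints and tendon sheaths, rose at both times: it was 9.26 ± 0.13 on chow, 9.65 ± 0.15 at 5 days (0.39 ± 0.08, limma adjusted p = 0.026) and 10.03 ± 0.06 at 42 days (0.77 ± 0.08, limma adjusted p = 0.000398). Cilp, the cartilage intermediate layer protein and relative of Cilp2, rose at 42 days from 10.60 ± 0.22 to 11.25 ± 0.09 (0.66 ± 0.10, limma adjusted p = 0.00479). The fibril-associated collagen Col12a1 (0.35 ± 0.07, limma adjusted p = 0.013) and the thrombospondin Thbs2 (0.30 ± 0.06, limma adjusted p = 0.0167) rose as well. Between 5 and 42 days Prg4 (0.38 ± 0.08, limma adjusted p = 0.0195), Cilp (0.41 ± 0.10, limma adjusted p = 0.026) and Col12a1 (0.28 ± 0.07, limma adjusted p = 0.0266) rose, and Eya1, a transcriptional coactivator, fell (-0.35 ± 0.07, limma adjusted p = 0.0172). Prg4, Cilp and Col12a1 passed at 42 days without each array, Thbs2 did not without chow replicate 3 (0.27 to 0.35 over the arrays left out), and at 5 days Prg4 (0.32 to 0.44) did not without chow replicate 1 or 5-day replicates 2 or 4. None of the 4 calls between the times held without 42-day replicate 1. Prg4 (0.33 to 0.45) also lost its call without 42-day replicate 2, and Eya1 (-0.40 to -0.31) without 5-day replicate 2. Cilp (0.35 to 0.47) and Col12a1 (0.24 to 0.32) also lost theirs when 5-day replicate 2 or 3 or 42-day replicate 2 or 4 was left out, and Col12a1 after quantile normalization (0.26) and cyclic loess (0.27). Other probe sets of Col12a1 and Eya1 gave other values: with the most variable one Col12a1 was at 0.13 at 42 days against chow and -0.024 between the times, and Eya1 at 0.23 between the times. With the most variable probe set, and with the mean of its probe sets, Col12a1 lost its 42-day call. Both genes lost their calls between the times in the same settings. The tendon transcription factor Mkx was dim, at 4.99 ± 0.15 on chow and 5.16 ± 0.12 at 42 days (0.17 ± 0.07, limma adjusted p = 0.191).

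Of 16 cartilage genes measured, 12 were higher at 42 days, 0 passed limma's test and 3 had an unadjusted p under 0.05, with a median of 0.082. Col11a1, a minor fibrillar collagen, was closest (0.27 ± 0.08, limma adjusted p = 0.0548). The defining cartilage genes aggrecan or Acan (8.07 ± 0.06 on chow, 8.03 ± 0.04 at 42 days, limma adjusted p = 0.767) and collagen II or Col2a1 (7.90 ± 0.16 and 8.03 ± 0.15, limma adjusted p = 0.431) were not past the test. At 5 days Snorc, a membrane proteoglycan of chondrocytes, fell (-0.25 ± 0.06, limma adjusted p = 0.0349), a call lost when chow replicate 1 or 2 or 5-day replicate 2 or 4 was left out (-0.28 to -0.21). The summed linear signal of the list was 3084 to 3288 on chow, 2884 to 3208 at 5 days and 3250 to 3449 at 42 days. By mean signal the cartilage list ran from percentile 3.47 (Hapln1) to 47.7 (Snorc) of all genes, with Acan at 42.1 and Col2a1 at 40.8. No detection call was used, so whether these genes were measured above background is not known.

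**Figure D5:**
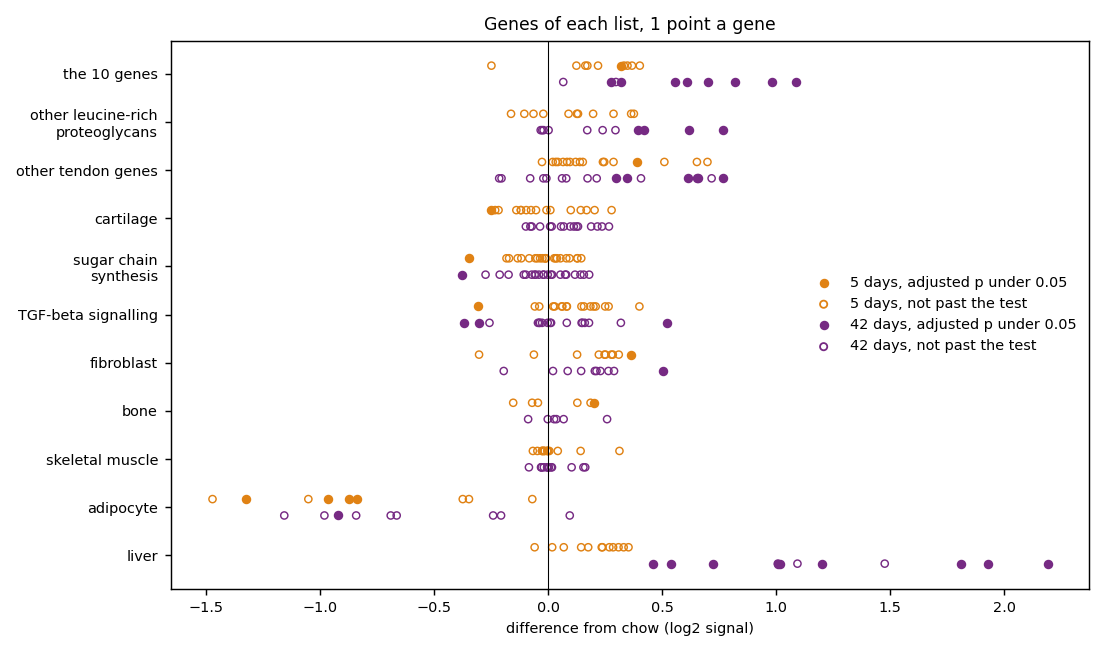
Difference from chow on the log2 scale (x axis), 1 point a gene, for the 10 genes and for lists of related genes and cell type markers (rows; the 10 genes are left out of the other lists); orange is 5 days, purple 42 days, and filled points passed limma at an adjusted p under 0.05. The 10 genes, other proteoglycans and other tendon genes reach beyond 0.6 at 42 days, cartilage genes stay under 0.3, and liver markers reach 2.19.

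The enzymes that build the sulfated sugar chains of proteoglycans showed 9 of 22 genes higher at 42 days, a median of -0.021 and 1 call. Chst1, a sulfotransferase of keratan sulfate, the chain type of Fmod and Lum, fell from 9.14 ± 0.16 on chow to 8.80 ± 0.14 at 5 days (-0.35 ± 0.09, limma adjusted p = 0.0481) and 8.76 ± 0.14 at 42 days (-0.38 ± 0.09, limma adjusted p = 0.028). At 42 days the call was lost when chow replicate 3 or 4 or 42-day replicate 1, 2 or 3 was left out (-0.43 to -0.30), and at 5 days it passed in 1 of the 12 fits without an array, that without 5-day replicate 3 (-0.40 to -0.27).

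TGF-beta, a growth factor that several of these proteoglycans bind and that raises matrix genes, had 17 measured pathway genes, of which 9 were higher at 42 days, 1 rose and 2 fell, with a median of 0.0085. The latent TGF-beta binding proteins differed in direction: Ltbp4 rose (9.85 ± 0.22 to 10.37 ± 0.09, 0.52 ± 0.13, limma adjusted p = 0.0322) and Ltbp3 fell (11.03 ± 0.12 to 10.66 ± 0.03, -0.37 ± 0.06, limma adjusted p = 0.00617). The call of Ltbp4 was lost when chow replicate 1 or 3 or any 42-day array was left out (0.43 to 0.60), and Ltbp3 was at -0.080, not past the test, with the mean of its probe sets. Smad3, the signal transducer, fell by its brightest probe set (-0.31 ± 0.07, limma adjusted p = 0.0212) but was at 0.38 with the mean of its probe sets and 0.85 with the most variable one, so no direction is given for it. At 5 days Ltbp2 fell (-0.31 ± 0.08, limma adjusted p = 0.0416), a call lost when chow replicate 2, 3 or 4, 5-day replicate 2, 3 or 4 or 42-day replicate 1, 2 or 3 was left out (-0.37 to -0.25). The ligands Tgfb1 (-0.04 ± 0.06), Tgfb2 (0.0085 ± 0.066) and Tgfb3 (-0.0022 ± 0.049) were not past the test at 42 days.

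Markers of other cells were read beside these results. Of 10 fibroblast markers other than Lum and Dcn, the summed linear signal was 24493 to 29537 on chow, 26167 to 29898 at 5 days and 27327 to 29521 at 42 days, with overlap. That sum weights bright probe sets most, such as Gsn (13.94 on chow, 42-day difference 0.021). The mean log2 signal of the same 10 markers was 10.07 to 10.38 on chow, 10.22 to 10.52 at 5 days and 10.36 to 10.46 at 42 days. Among all 12 genes of the list 11 were higher at 42 days, with a median of 0.22, and 8 had an unadjusted p under 0.05, Dpp4 among them lower (-0.20); beside Lum, which is 1 of the 10 genes, Mfap5, a microfibril protein, rose (0.51 ± 0.13, limma adjusted p = 0.0382), and Pdgfra, which defines muscle fibroblast progenitors, was at 0.23 ± 0.11 (limma adjusted p = 0.222). Mfap5 lost its call when chow replicate 2 or 3, 5-day replicate 1 or 42-day replicate 1, 2 or 4 was left out (0.37 to 0.58). At 5 days Pi16 rose (0.36 ± 0.09, limma adjusted p = 0.0444), a call that held in 8 of 23 alternatives and in 2 of the 12 fits without an array. Of 8 endothelial markers 6 were higher at 42 days, with a median of 0.13, and Pecam1 rose (0.43 ± 0.11, limma adjusted p = 0.0393). It passed in 5 of the 12 fits without an array (0.34 to 0.50). At 5 days Vwf (0.33 ± 0.07, limma adjusted p = 0.0361) and Cldn5 (0.37 ± 0.09, limma adjusted p = 0.0376) rose, passing in 8 and 4 of those 12 fits (0.27 to 0.37 and 0.33 to 0.45). Between 5 and 42 days Vwf fell (-0.33 ± 0.07, limma adjusted p = 0.0236). That call was lost when 5-day replicate 2 or 3 or 42-day replicate 1 or 4 was left out (-0.38 to -0.27). The summed endothelial signal was 4012 to 4507 on chow, 4181 to 5512 at 5 days and 4218 to 4692 at 42 days. Of 6 smooth muscle markers Myh11 rose at 5 days (0.36 ± 0.09, limma adjusted p = 0.0418) and at 42 days (0.32 ± 0.09, limma adjusted p = 0.0444), passing in 3 and 2 of the 12 fits without an array (0.29 to 0.44 and 0.28 to 0.36). The summed smooth muscle signal was 18466 to 20261 on chow, 19315 to 21942 at 5 days and 19305 to 20169 at 42 days. Of 8 macrophage markers Adgre1 fell at 5 days (-0.23 ± 0.06, limma adjusted p = 0.0469), passing in 1 of those 12 fits (-0.27 to -0.20). Of 5 Schwann cell markers 0 passed by limma at either time, with 0 at 5 days and 1 at 42 days at an unadjusted p under 0.05. Liver transcripts also differed at 42 days: 9 of 12 rose, among them Alb (2.19 ± 0.39, limma adjusted p = 0.00893), and their summed signal was 3032 to 4192 on chow, 2692 to 8151 at 5 days and 6370 to 16349 at 42 days. Within groups the mean of the 12 liver markers had r = -0.030 with the mean of the 10 genes over 12 arrays. Of 9 adipocyte markers all were lower at 5 days and 4 fell, Retn (-0.97 ± 0.21, limma adjusted p = 0.0349), Agpat2 (-0.84 ± 0.19, limma adjusted p = 0.0349), Thrsp (-0.87 ± 0.20, limma adjusted p = 0.0371) and Cidec (-1.33 ± 0.34, limma adjusted p = 0.0466). They passed in 9, 9, 7 and 1 of the 12 fits without an array. In the same list 8 were lower at 42 days and 1 fell, Thrsp (-0.92 ± 0.20, limma adjusted p = 0.0207), a call lost when chow replicate 3 or 42-day replicate 2 or 3 was left out (-1.11 to -0.69). Their summed signal was 22744 to 45890 on chow, 17812 to 23903 at 5 days and 17725 to 25956 at 42 days, and r within groups was -0.10. The same r was 0.88 for the other proteoglycans, 0.77 for other tendon genes, 0.77 for the 10 fibroblast markers, 0.70 for cartilage genes, 0.68 for endothelial, 0.59 for smooth muscle, 0.51 for Schwann cell, 0.21 for macrophage, 0.17 for skeletal muscle and -0.28 for bone markers, 0.58 for TGF-beta genes and 0.063 for sugar chain enzymes, given as descriptions over arrays that share their scaling. Bone markers, which could come with an attachment site, had 0 of 6 calls by limma at 42 days. Among them 1 had an unadjusted p under 0.05, and Ibsp was closest (0.26 ± 0.11, limma adjusted p = 0.205). By mean signal Dmp1, Phex, Sost and Ibsp were dim, from percentile 9.383 (Dmp1) to 13.05 (Ibsp) of all genes. Sp7 (70.61) and Alpl (57.81) were brighter. Without a detection call, whether the dim bone markers were measured above background is not known. At 5 days Alpl rose (0.20 ± 0.05, limma adjusted p = 0.0437), in 0 of the 12 fits without an array (0.18 to 0.22). What part fibroblasts, vessels, tendon or other tissue in the samples have in the differences was not tested.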

How the data were processed

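Transcripts were measured in skeletal muscle on 12 Affymetrix arrays, 4 a group. The deposited values are log2 RMA signals per probe set; RMA is named in the submitters' processing notes, with no version, and values from 3.67 to 15.46 fit that scale. Of 45098 probe sets, 34945 had 1 gene symbol, and each of 18193 genes was read from its brightest one; no filter on dim genes was set. The 3 group means were compared in 1 model over the 12 arrays (limma 3.58.1, R 4.3.3, 9 residual and 5.88 prior degrees of freedom), two-sided, with Benjamini-Hochberg adjustment over all genes, and called at an adjusted p under 0.05. On simulated data (18193 genes), changes of 0.5 were recovered in 86% for 5 days against chow, 96% for 42 days against chow and 90% for 42 against 5 days, and changes of 0.25 in 32%, 48% and 44%. The 3 runs used the same means and SDs, with 50 genes changed per size, so their rates differ only by the random draw. Noise was independent between genes, with no effect shared across an array, so the rates may not hold for these arrays. Pair correlations used 13824 within-group permutations.

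The 10 genes and the lists of comparison genes were chosen with earlier results of these data known. Named list genes are up to 4 called with the smallest p in a contrast, or the closest where none was called. Acan, Col1a1, Col1a2, Col2a1, Acta1, Ckm, Mkx, Pdgfra and the 3 Tgfb genes fall outside that rule and were named as defining markers or ligands after their values were seen. The 8 genes most like the mean of the 10 were named by r. Replicate numbers did not pair the arrays: of 12 pairs with equal numbers, 3 had a correlation above 0.1, all of replicate 1 (0.208 to 0.221), and the other 9 lay between -0.176 and 0.0986. The number of arrays limits the precision.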

Additional observations from a re-analysis of the deposited data

Results flagged for a closer look

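In 3 of 30 groups of 4 arrays, 1 array stood apart from the other 3 by its gap over the whole range; chance gives about 1 in 20. Chad on chow had its lowest array at 8.62, with the next at 9.09. Thbs4 on chow had its highest array at 11.20, with the next at 10.89. Scx at 42 days had its highest array at 7.54, with the next at 7.39. The 42-day difference from chow exceeded the 5-day one in 5 of the genes, by limma at an adjusted p under 0.05. The excess was 0.615 for Fmod, 0.336 for Comp, 0.687 for Tnmd, 0.315 for Scx and 0.47 for Thbs4. Both differences use the same chow mean, which cancels, so these are the calls between 42 and 5 days given above, with the same limits.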

How the results depend on the processing

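The median differences of the 10 genes stayed within 0.16, the SD of their mean within groups, under all alternatives: without 1 array they were 0.18 to 0.36 at 5 days, 0.49 to 0.67 at 42 days and 0.26 to 0.45 between the times. Calls at 42 days against chow were 8 of 10 genes and 4 to 8 without 1 array. They were 6 with a trended and robust prior and 9 at an adjusted p under 0.1. With arrays centred on their median, the mean of probe sets, the replicate block or only the 8 arrays compared they were 7. The prior ended the calls of Lum and Chad, centring and the 8 arrays that of Bgn, and the mean of probe sets that of Chad. At 5 days 1 gene was called, 0 to 3 without 1 array, 2 with arrays centred on their median, the replicate block or an adjusted p under 0.1, and 0 after quantile normalization or cyclic loess, with the mean or most variable probe set, array weights, every probe set tested or only the 8 arrays compared. Between 42 and 5 days 5 were called, 0 to 5 without 1 array, 3 after cyclic loess, with the most variable probe set or a trended and robust prior, and 2 after quantile normalization or with the mean of probe sets. Over all genes, calls at 5 days (692) were 208 after quantile normalization, 207 after loess, 1353 with centred arrays, 159 with array weights, 7 with only 8 arrays and 2073 at an adjusted p under 0.1, and 6 to 790 without 1 array. At 42 days (1011) they were 2536 with the most variable probe set, 1872 at 0.1, and 228 to 1079. Between the times (1550) they were 371 after quantile normalization, 363 after loess, 3465 with centred arrays, 529 with the mean of probe sets, 3682 at 0.1, and 0 to 1972. Pairs varying together (8) numbered 0 with the replicate block and 0 to 17 without 1 array. Among the 10 genes the replicate block ended the calls of Chad at 42 days and Comp between the times and added Thbs4 at 5 days; the array most like each array had the same number for 4 of 12. Signs turned for Smad3 with the mean of probe sets (0.38 at 42 days, 0.14 between the times) and the most variable one (0.85 and 0.45), and with the latter between the times for Eya1 (0.23) and Col12a1 (-0.024). The cause was not tested. The alternatives for genes of the comparison lists were chosen after seeing the data. Dim probe sets, Scx among them, limit what the signal over background can show; leaving out the 40% dimmest genes dropped Scx.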
